A study of Mus musculus with 2 samples.

Results

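The E2F transcription factors and the pocket proteins that bind them were followed in liver RNA. The set was chosen by name and consists of 10 genes, *E2f1* to *E2f8* and the pocket protein genes *Rb1* and *Rbl2* (which encodes p130), of 45777 gene symbols in the deposited table. All 10 were among the 15857 genes with at least 10 estimated counts in at least 1 library. Livers came from C57BL/6 N mice that were 7 weeks old when a high-fat diet (HFD) began and that ate it for 18 weeks. At week 13, 5 weeks before the end, AAV-GFP (GFP overexpression, the control) or AAV-*Wee1-AS* (overexpression of the long noncoding RNA *Wee1-AS*, transcribed antisense to the kinase gene *Wee1*) was injected behind the eye. Both groups were on HFD and both carried a viral vector, so neither is an untreated liver. The *Wee1-AS* vector used the CMV promoter, which is not restricted to hepatocytes. Sex and any pooling of mice are not given in the sources used here.

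Each group was represented by 1 library, although the design text speaks of 4 liver samples. The libraries totalled 55466182 (AAV-GFP) and 48079335 (AAV-*Wee1-AS*) estimated counts. With 1 library per group there is no spread between mice, no test and no p-value. Each ratio is AAV-*Wee1-AS* over AAV-GFP after scaling of the libraries, and its 95% interval covers counting error only. *Wee1-AS* itself was not analysed here. Over all genes, 22.5% had a ratio above 2 and 8.43% a ratio below 0.5, together 31.0%. The ratio also moved with the base composition of the transcript, with a Spearman coefficient of -0.67 between log2 ratio and GC content across 14995 genes, so ratios of members and pathway genes are also given with the trends for GC content and length removed, in short as the value after "then". This left 7.38% of genes above 2 and 8.53% below 0.5.

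E2F proteins bind the promoters of genes for DNA replication and division, most of them together with a DP partner. E2F1, E2F2 and E2F3 activate these genes until a pocket protein binds them, E2F4 and E2F5 repress them together with p130 or p107 in resting cells, and E2F6, E2F7 and E2F8 repress without a pocket protein. In the liver this network is known for the control of polyploidy, since E2F7 and E2F8 favour the failed cytokinesis by which hepatocytes become binucleate and polyploid, whereas E2F1 opposes it. Ploidy was not measured in these libraries, which hold RNA of the whole liver, and fewer cells of a type and less RNA per cell cannot be told apart in them.

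As measured, the pocket protein genes were the members with the highest ratios, and both were more than 2-fold higher in the AAV-*Wee1-AS* library. *E2f8*, *E2f5* and *E2f3* were higher by 1.59-fold to 1.97-fold, whereas *E2f1* was at 0.514 times and *E2f2* at 0.668 times its control level. *E2f4* and *E2f6* lay close to equality, and *E2f7* was near the limit of detection. With the trends removed, no member was past 2-fold in either direction. The log2 ratio of *Rbl2* was still the highest (0.75), but that of *Rb1* (0.39) lay below those of *E2f5* (0.68), *E2f8* (0.64) and *E2f4* (0.42).

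**Figure D1:**
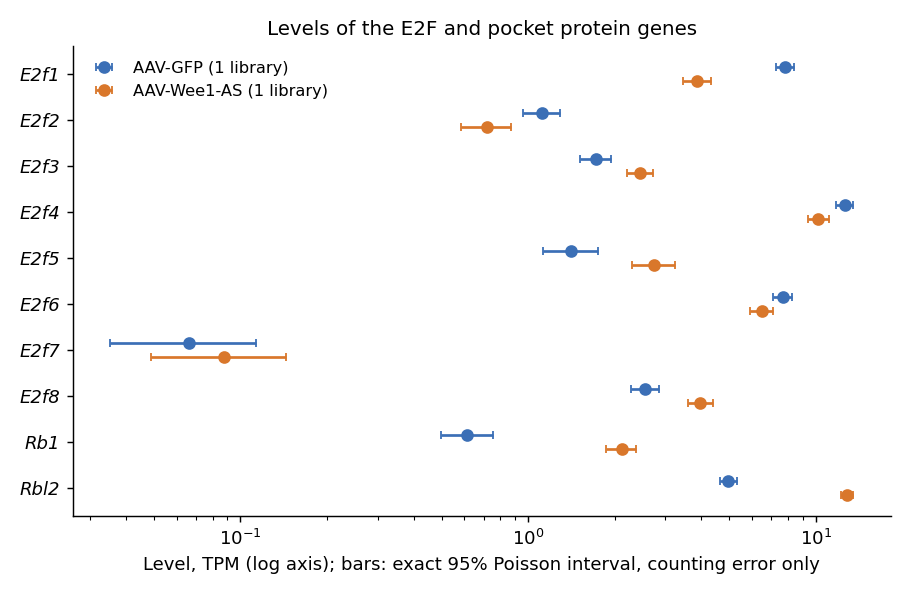
Level of each member in TPM (transcripts scaled to an equal sum per library, a level per transcript length) in both libraries, on a log axis. Points are the libraries and bars are exact 95% Poisson intervals, which cover counting error only. *Rbl2* was at 4.96 TPM in AAV-GFP and at 12.8 TPM in AAV-*Wee1-AS*, and *E2f7* was below 0.1 TPM in both.

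Per transcript length, *E2f4* was the most abundant member in the AAV-GFP library with 12.6 TPM. It was followed by *E2f1* (7.81), *E2f6* (7.67), *Rbl2* (4.96), *E2f8* (2.56), *E2f3* (1.72), *E2f5* (1.41), *E2f2* (1.12), *Rb1* (0.615) and *E2f7* (0.0662). The counting intervals of neighbours in this order overlapped for *E2f1* and *E2f6*, for *E2f3* and *E2f5*, and for *E2f5* and *E2f2*. In the AAV-*Wee1-AS* library *Rbl2* came first with 12.8 TPM, ahead of *E2f4* (10.2), *E2f6* (6.49), *E2f8* (3.97), *E2f1* (3.87), *E2f5* (2.75), *E2f3* (2.45), *Rb1* (2.11), *E2f2* (0.718) and *E2f7* (0.0876). Here the neighbours *E2f8* and *E2f1*, *E2f5* and *E2f3*, and *E2f3* and *Rb1* overlapped. In uncorrected TPM *E2f1* therefore stood at place 2 of 10 in AAV-GFP and at place 5 in AAV-*Wee1-AS*, and *Rbl2* at places 4 and 1. The log2 ratio of *Rbl2* exceeded that of *E2f4* by 1.67 as measured but by 0.32 with the trends with GC content and length removed. The removal acts on the ratio between the libraries and gives no corrected level within either library. No place was therefore computed with the trends removed, and the order is given for uncorrected TPM only. Among all genes past the count filter, *E2f4* was at percentile 70.6 of TPM in AAV-GFP and *E2f7* at percentile 3.95.

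Among the activators, *E2f1* (gene 13555, mm10 chromosome 2, 154559400 to 154569892, minus strand), which drives entry into S phase, had 698 counts in AAV-GFP and 295 in AAV-*Wee1-AS*. AAV-GFP was the higher library, with a log2 ratio of -0.96 (95% counting interval -1.17 to -0.77), which passed 2-fold when the libraries were scaled by their totals (-1.03) or upper quartiles (-1.09). With the trends removed it was -0.24 (-0.45 to -0.05). At 58.3% GC, *E2f1* was the most GC-rich member, and its ratio was at percentile 22.2 of the genes of like GC content, whose median log2 ratio was -0.68.

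Both *E2f1* transcripts had fewer counts in AAV-*Wee1-AS*, and the difference was larger in variant 2. Transcript variant 2, which starts at 154569426, had 518 counts in AAV-GFP and 162 in AAV-*Wee1-AS*, a log2 ratio of -1.39 (-1.66 to -1.14). Transcript variant 1, which starts further upstream at 154569892, had 180 and 133 counts, a log2 ratio of -0.16 (-0.49 to 0.17) whose interval includes equality. Variant 2 thus held 74.2% of the gene's counts in the control library and 54.9% in the other. Counts of transcripts that share exons are apportioned by the quantification and are less certain than the sum over the gene.

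*E2f2* (gene 242705, chromosome 4, 136172274 to 136196057, plus strand), a second activator, had 179 counts in AAV-GFP and 98 in AAV-*Wee1-AS*. It was lower in AAV-*Wee1-AS*, with a log2 ratio of -0.58 (-0.96 to -0.23). Trend removal gave -0.21 (-0.59 to 0.15), an interval that includes equality. All of its counts were assigned to transcript variant 1.

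*E2f3* (gene 13557, chromosome 13, 29906575 to 29986064, minus strand) is transcribed from alternative promoters. The upstream one gives the activator form E2F3a, and an intronic one gives the shorter E2F3b, which resting cells also make. The gene had 260 counts in AAV-GFP and 353 in AAV-*Wee1-AS*, a log2 ratio of 0.71 (0.48 to 0.96) and, after removal of the trends, of 0.39 (0.16 to 0.63). This modest difference of the sum covered a complete exchange of the transcripts to which the counts were assigned.

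In AAV-GFP every *E2f3* count was assigned to the downstream start at 29984391, with 161 counts on transcript variant 2 and 99 on variant 3. In AAV-*Wee1-AS* none was. Its counts instead lay on the upstream start, 1672 bases away, with 185 on predicted variant X1, 149 on predicted variant X2 and 19 on variant 1, all of which had 0 in AAV-GFP. Summed over each start, the downstream transcripts were 260 against 0 and at least 71.5-fold lower in AAV-*Wee1-AS*, and the upstream transcripts were 0 against 353 and at least 143-fold higher, with the library at 0 set to a floor of 3 counts. The floors hold for counting error of the assigned counts only. The first exon, the one that tells the forms apart, is 264 bases long with 78.4% GC at the downstream start and 764 bases long with 64.1% GC at the upstream start of variant 1. The part of base composition, or of the assignment between overlapping transcripts, in this exchange was not tested.

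Transcripts were also exchanged in other genes. A group of 7947 genes, chosen after the data had been seen, had 50 counts or more per library and at least 2 counted transcripts, and 144 of them or 1.81% had no transcript that was counted in both. The most counted transcript differed between the libraries in 24.2%. Of the 5 members in this group, *E2f3* was the only 1 with no shared transcript, and the most counted transcript differed in 2, *E2f3* and *E2f6*. The share of counts that lay on the same transcripts in both libraries was 0% for *E2f3*, 62.6% for *E2f6*, 80.7% for *E2f1*, 95.6% for *Rbl2* and 98.3% for *Rb1*, against a median of 86.3% over the genes of the group.

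**Figure D2:**
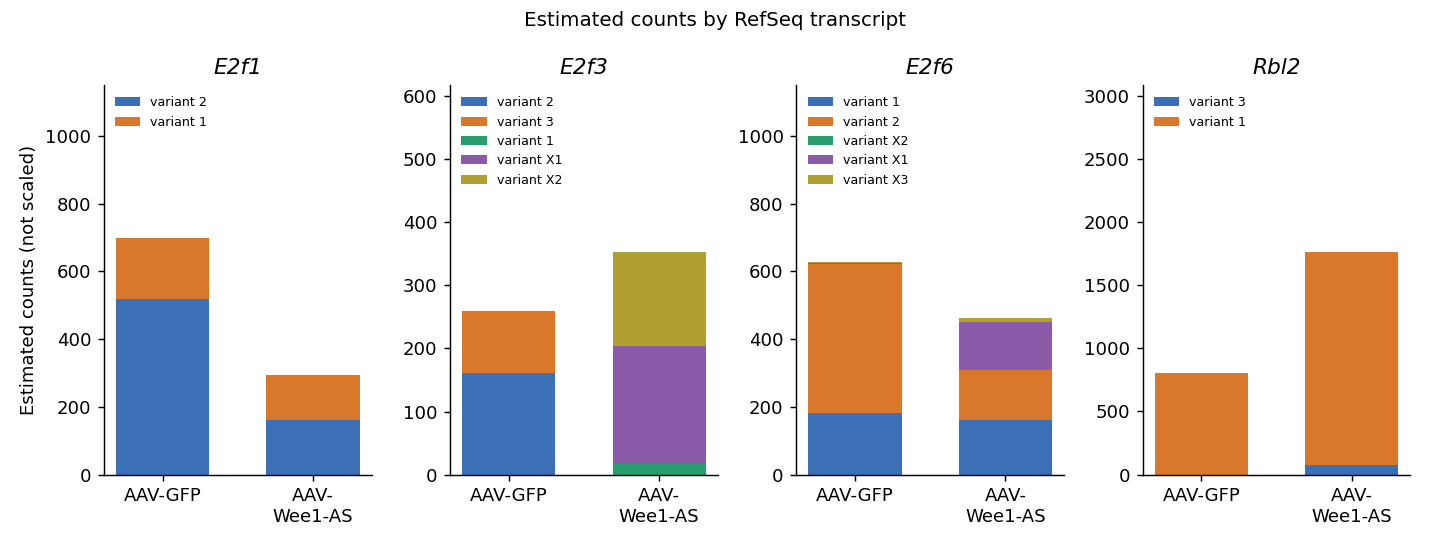
Estimated counts of the counted transcripts of *E2f1*, *E2f3*, *E2f6* and *Rbl2* in the 2 libraries, stacked by transcript in 1 bar per library, not scaled, with a count axis from 0 in each panel. The *E2f3* bars of the AAV-GFP library (161 and 99 counts) and of the AAV-*Wee1-AS* library (185, 149 and 19 counts) stand on different transcripts.

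The bases upstream of the starts in question show how unlike the *E2f3* promoters are. RefSeq promoter windows (build GRCm38.p6, 250 bases before and 50 bases from the start on) matched 7 of the 10 members with 9 windows, and *E2f4*, *E2f5* and *Rb1* had no entry. Printed 5′ to 3′ in the direction of transcription are the 250 bases before both *E2f3* starts, and before the starts of *E2f2* and *Rbl2*, whose counted transcripts begin there. Capitals mark matches, on either strand, to an E2F word (TTTCCCGC, TTTGCCGC, TTTCGCGC or TTTGGCGC), to the CHR word TTTGAA, which the MuvB complex binds through LIN54, or to the NF-Y word CCAAT.
E2f3 upstream start, chr13:29986064-29986313, minus strand: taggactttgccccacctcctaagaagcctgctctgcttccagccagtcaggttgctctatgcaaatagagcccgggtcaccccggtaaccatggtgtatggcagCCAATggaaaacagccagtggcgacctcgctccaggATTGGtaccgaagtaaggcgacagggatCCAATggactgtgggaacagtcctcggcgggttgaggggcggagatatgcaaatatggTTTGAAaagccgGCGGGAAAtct
E2f3 downstream start, chr13:29984392-29984641, minus strand: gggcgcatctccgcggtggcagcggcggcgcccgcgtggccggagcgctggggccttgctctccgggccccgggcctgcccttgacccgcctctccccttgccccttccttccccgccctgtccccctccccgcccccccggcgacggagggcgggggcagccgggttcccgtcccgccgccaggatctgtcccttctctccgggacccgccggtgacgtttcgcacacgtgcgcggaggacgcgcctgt
E2f2, chr4:136172024-136172273, plus strand: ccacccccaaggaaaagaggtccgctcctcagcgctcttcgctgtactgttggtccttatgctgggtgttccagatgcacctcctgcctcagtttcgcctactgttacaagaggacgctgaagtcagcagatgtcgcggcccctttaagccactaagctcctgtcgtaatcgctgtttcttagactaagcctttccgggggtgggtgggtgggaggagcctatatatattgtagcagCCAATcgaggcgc
Rbl2, chr8:91069807-91070056, plus strand: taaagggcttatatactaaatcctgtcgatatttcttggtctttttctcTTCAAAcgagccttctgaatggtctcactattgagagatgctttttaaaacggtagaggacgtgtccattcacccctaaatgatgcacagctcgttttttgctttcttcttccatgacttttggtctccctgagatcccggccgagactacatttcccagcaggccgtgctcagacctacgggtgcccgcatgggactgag
The downstream *E2f3* window has 78% GC and none of these words, whereas the upstream window has 55.6% GC and holds an E2F word on the minus strand from -11, TTTGAA from -23 and CCAAT 3 times. No printed match overlaps another. The *Rbl2* window has 46.8% GC and a single TTTGAA on the minus strand from -201, and the *E2f2* window holds CCAAT from -13, with an E2F word at 40 bases past the start, outside the printed bases. Over whole windows, an E2F word was found for 3 of 9 member windows (*E2f2*, *E2f3* upstream and *E2f7*) and in 2.26% of all 32851 windows, TTTGAA in 4 of 9 and 17.9%, and CCAAT in 5 of 9 and 37.4%. These are matches of letters and not measured binding sites.

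*E2f4* (gene 104394, chromosome 8, 105297663 to 105305370, plus strand), the main E2F of resting cells, had 828 counts in AAV-GFP and 567 in AAV-*Wee1-AS*. The log2 ratio was -0.27 (-0.43 to -0.11), lower in AAV-*Wee1-AS*. The direction turned once the trends were removed, with a log2 ratio of 0.42 (0.27 to 0.58), since genes of its GC content (56.1%) had a median log2 ratio of -0.60. No direction can therefore be given for *E2f4*.

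*E2f5* (gene 13559, chromosome 3, 14578602 to 14606309, plus strand), the closest relative of *E2f4* and a partner of p130, had 82 counts in AAV-GFP and 135 in AAV-*Wee1-AS*. It was higher in AAV-*Wee1-AS* with a log2 ratio of 0.98 (0.59 to 1.41), which is 1.97-fold and just under the 2-fold limit. Trend removal gave 0.68 (0.29 to 1.11). The uncorrected TPM of *E2f4* and *E2f5* together was 14.0 in AAV-GFP and 12.9 in AAV-*Wee1-AS*. This class held 40.1% and 42.4% of the summed E2F TPM as measured, most of it *E2f4*, whose direction turned on removal. With the trends removed both genes were higher in AAV-*Wee1-AS*, *E2f4* at 0.42 and *E2f5* at 0.68, whereas the uncorrected sum was lower. No direction can therefore be given for this sum or its share.

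*E2f6* (gene 50496, chromosome 12, 16810909 to 16826752, plus strand) lacks the region that pocket proteins bind and represses with polycomb proteins. It had 628 counts in AAV-GFP and 461 in AAV-*Wee1-AS*, a log2 ratio of -0.17 (-0.34 to 0.0075) whose interval includes equality. Without the trends it was -0.20 (-0.38 to -0.03). As for *E2f3*, the sum hid differences between transcripts.

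The noncoding *E2f6* transcript variant 2 had 438 counts in AAV-GFP and 149 in AAV-*Wee1-AS*, a log2 ratio of -1.27 (-1.56 to -1.01). The coding variant 1 had 183 and 161 counts, a log2 ratio of 0.09 (-0.22 to 0.41). Predicted variant X1, also coding, had 3 and 140 counts, a scaled ratio of 56.6 with an interval of 4.25 to 8.12 on the log2 scale. The noncoding form held 69.7% of the *E2f6* counts in AAV-GFP and 32.3% in AAV-*Wee1-AS*.

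The atypical E2Fs bind DNA without a DP partner. *E2f7* (gene 52679, chromosome 10, 110745439 to 110787384, plus strand) had 13 counts in AAV-GFP and 15 in AAV-*Wee1-AS*, with a log2 ratio of 0.42 (-0.69 to 1.68). A difference was not detectable at this depth. *E2f8* (gene 108961, chromosome 7, 48866429 to 48882073, minus strand) had 311 and 409 counts, was higher in AAV-*Wee1-AS* with a log2 ratio of 0.67 (0.46 to 0.89), and kept 0.64 (0.43 to 0.86) after removal of the trends. Its ratio was at percentile 85.3 of the genes of like GC content. *E2f8* was thus the atypical member that these livers held, at 38.6 times the TPM of *E2f7* in AAV-GFP and 45.3 times in AAV-*Wee1-AS*. Exons of *E2f8* share 610 bases with *Gm2788* on the opposite strand, which had 504 and 444 counts and a log2 ratio of 0.09.

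Set against the activators, the atypical members took a larger place in the AAV-*Wee1-AS* library as measured, a shift carried by *E2f8* and *E2f1*. The summed TPM of *E2f1*, *E2f2* and *E2f3* was 10.6 in AAV-GFP and 7.04 in AAV-*Wee1-AS*, or 30.5% and 23.1% of the TPM of all E2Fs. For *E2f7* and *E2f8* together it was 2.62 and 4.06 TPM, or 7.50% and 13.3%. The TPM of *E2f1* was 3.06 times that of *E2f8* in AAV-GFP and 0.975 times in AAV-*Wee1-AS*. The log2 ratio of *E2f1* minus that of *E2f8* was -1.63, and -0.88 with the trends removed, when the interval of *E2f2* included equality and those of *E2f1* and *E2f8* did not. Summed over the 8 genes, uncorrected E2F TPM was 34.9 in AAV-GFP and 30.5 in AAV-*Wee1-AS*. Since *E2f4* is the largest term, no direction can be given for this sum, and the shares of it hold as measured only.

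The pocket proteins hold E2Fs in check until cyclin-dependent kinases phosphorylate them. *Rb1* (gene 19645, chromosome 14, 73192858 to 73325951, minus strand), the retinoblastoma gene, had 95 counts in AAV-GFP and 275 in AAV-*Wee1-AS*. It was 3.45-fold higher in AAV-*Wee1-AS*, a log2 ratio of 1.79 (1.47 to 2.16). *Rb1* is also the member with the lowest GC content (41.2%), and genes of like GC content had a median log2 ratio of 1.44. Within them *Rb1* was at percentile 63.7, and after removal of the trends its log2 ratio was 0.39 (0.07 to 0.77), or no longer past 2-fold. Exons of *Rb1* share 408 bases with *Lpar6* and 488 with *Rcbtb2*, both on the opposite strand. *Lpar6* had 203 and 414 counts, a log2 ratio of 1.30, and *Rcbtb2* had 1536 and 1832, a log2 ratio of 0.53.

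*Rbl2* (gene 19651, chromosome 8, 91070057 to 91123844, plus strand) encodes p130, the pocket protein of quiescent cells and of the DREAM repressor complex. It had 805 counts in AAV-GFP and 1763 in AAV-*Wee1-AS*, the largest count difference among the members. It was 2.65-fold higher in AAV-*Wee1-AS*, a log2 ratio of 1.41 (1.29 to 1.53), and the whole interval lay above 2-fold, as it did for *Rb1* and for 16.3% of all genes. Without the trends the log2 ratio was 0.75 (0.63 to 0.87), the highest among the members but under 2-fold. Nearly all counts lay on transcript variant 1, with 805 and 1685, and variant 3 had 0 and 78. On the opposite strand, *Aktip* shares 693 exonic bases with *Rbl2* and had 456 and 486 counts, a log2 ratio of 0.37. The library kit marks strand, but whether the counting used it is not given in the sources used here.

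The summed uncorrected TPM of *Rb1* and *Rbl2* was 5.58 in AAV-GFP and 14.9 in AAV-*Wee1-AS*, 2.68 times as much. With the trends removed the log2 ratios of *Rb1* (0.39) and *Rbl2* (0.75) were both under 2-fold, and the sum was not computed. *Rbl2* had 8.07 times the TPM of *Rb1* in AAV-GFP and 6.07 times in AAV-*Wee1-AS*. Against its E2F partner *E2f4*, *Rbl2* was at 0.394 times its TPM in AAV-GFP and at 1.26 times in AAV-*Wee1-AS*. *E2f1* was at 12.7 times the TPM of *Rb1* in AAV-GFP and at 1.83 times in AAV-*Wee1-AS*. The log2 ratio of *Rbl2* exceeded that of *E2f4* by 1.67 as measured and by 0.32 with the trends removed, that of *E2f1* minus that of *Rb1* was -2.75 and then -0.63, and that of *Rbl2* minus that of *Rb1* turned from -0.38 to 0.36.

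**Figure D3:**
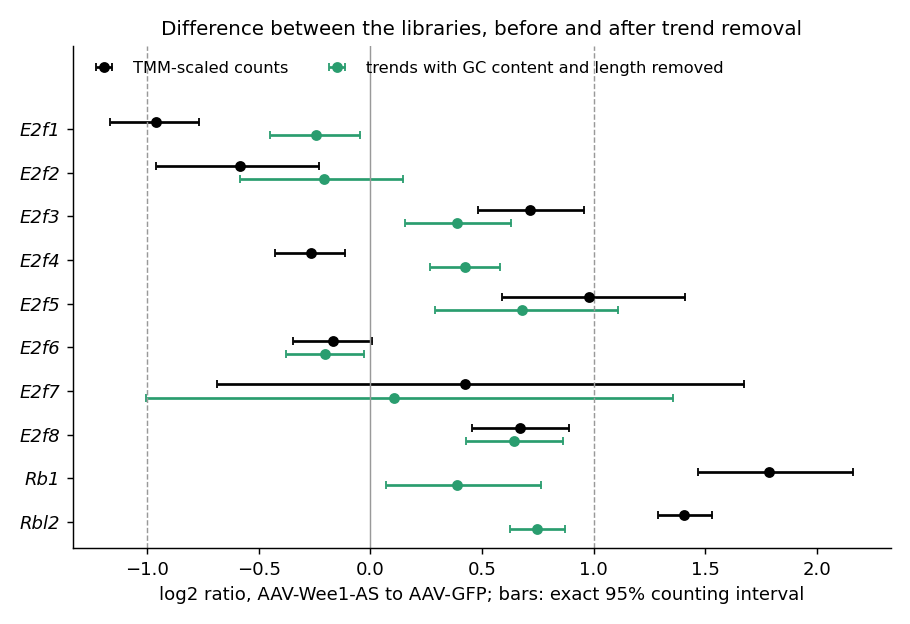
log2 ratio of each member, AAV-*Wee1-AS* to AAV-GFP, with 95% counting intervals, as measured and after removal of the trends with GC content and length. Dashed lines mark 2-fold. *Rb1* and *Rbl2* lie past 2-fold as measured and no member does after removal, and *E2f4* changes side.

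Counted over the set, 2 of 10 members had a ratio above 2, beside 22.5% of all genes, and 0 of 10 had one below 0.5, beside 8.43%, although *E2f1* was below 0.5 with scaling by totals or upper quartiles. The counting interval lay wholly above equality for 5 members (39.6% of all genes) and wholly below it for 3 (37.4%), and no member's interval lay wholly below 0.5-fold (3.61%). The median log2 ratio was 0.55 over the members and -0.00205 over all genes. With the trends removed, 0 members were past 2-fold (7.38% of genes above and 8.53% below), the interval lay wholly above equality for 6 (33.3%) and wholly below for 2 (33.7%), and the median was 0.39 beside -0.000781 over all genes. The share of members above 2-fold was thus near that of all genes as measured. Past 2-fold in either direction were 2 of 10 members, beside 31.0% of all genes. This count was 3 with scaling by totals or upper quartiles and 5 with only the most counted transcript. It is therefore not read as a result about the members.

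The order of the members by ratio followed GC content closely. Across the 10 members the Spearman coefficient between log2 ratio and GC content was -0.90, and after removal of the trends it was -0.58. The points share the same 2 libraries and are no independent replicates. With genes in 10 equal groups by GC content, the median log2 ratio went from 1.44 in the lowest group to -0.68 in the highest. Relative to the median of its own group, *Rbl2* was higher by 0.91, *E2f8* by 0.77, *E2f3* by 0.57, *E2f7* by 0.53, *E2f5* by 0.48, *Rb1* by 0.34, *E2f4* by 0.33 and *E2f2* by 0.02 on the log2 scale, and the values of *E2f1* and *E2f6* were -0.28 and -0.32. *E2f1* and *E2f6* were thus the members below the median of their own group. With the trends with GC content and length removed, *E2f2* was below equality as well, at -0.21 (-0.59 to 0.15), an interval that includes equality. The part of GC content in the ratios was not tested beyond this removal.

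**Figure D4:**
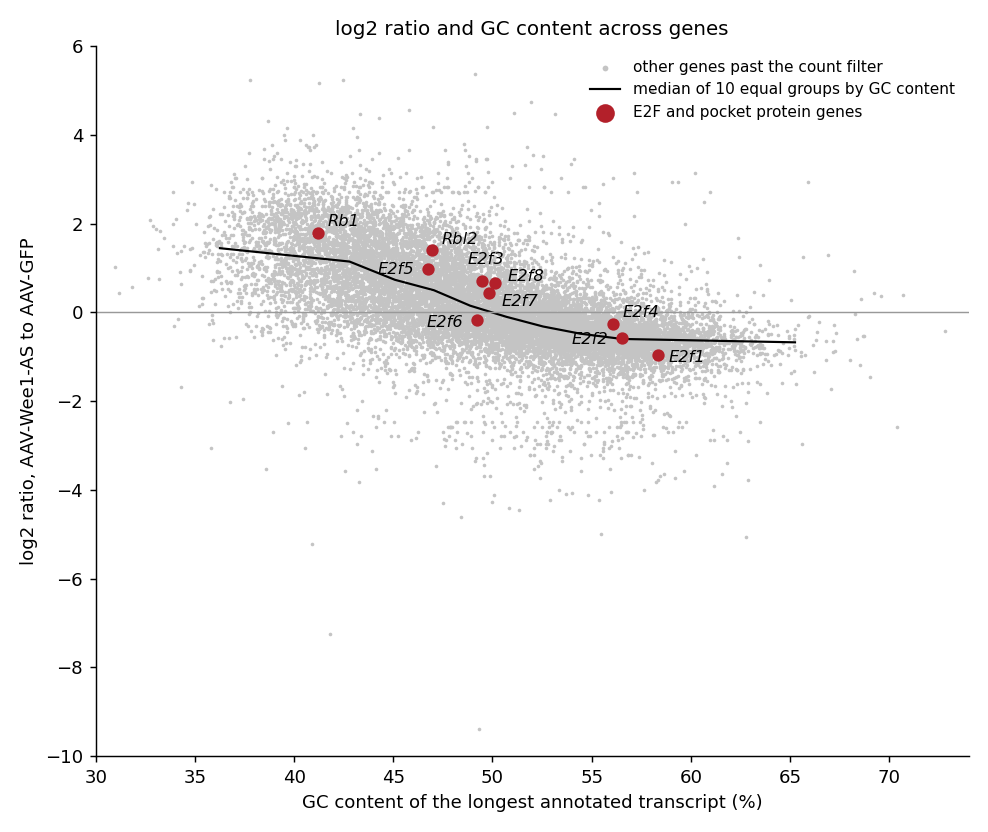
log2 ratio of genes past the count filter against the GC content (%) of their longest annotated transcript, with the members as red points and the median of 10 equal groups of genes as a line. The line goes from 1.44 to -0.68 with rising GC content, *Rb1* (41.2% GC) and *E2f1* (58.3% GC) lie near its ends, and *Rbl2* and *E2f8* lie above it.

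The other genes of the pathway were described with lists of partners, regulators and targets. Beside each list count below stand the shares of all genes, 22.5% above 2-fold and 8.43% below 0.5-fold as measured. With the trends removed these shares were 7.38% and 8.53%. The RB kinase list (25%), the G1/S targets (23.8%) and the mitosis list (21.4%) were near the share of all genes above 2-fold as measured. With the trends removed, 0 genes were above 2-fold in the lists of partners, MuvB core, RB kinases, CDK inhibitors and E2F turnover. Below 0.5-fold after removal were 1 gene of the MuvB list and 0 CDK inhibitors. All 3 genes for the shared partners were higher in AAV-*Wee1-AS*, and 2 of 3 were above 2-fold (median log2 ratio 1.37, after removal of the trends 0.09). *Tfdp2*, a DP partner, had 218 and 714 counts, a log2 ratio of 1.98 (1.77 to 2.21), and 0.80 after removal. *Rbl1*, which encodes p107, the third pocket protein, had 59 and 129 counts and a log2 ratio of 1.37 (0.95 to 1.88), but 0.03 after removal. *Tfdp1*, the more abundant DP partner, had 770 and 861 counts and a log2 ratio of 0.44 (0.30 to 0.58), then 0.09. The third pocket protein gene was thus past 2-fold as measured, like *Rb1* and *Rbl2*.

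Of the MuvB core and B-MYB, which join p130 and E2F4 in DREAM or activate mitotic genes, 5 of 6 genes passed the count filter. Of these, 2 were above 2-fold and 0 below 0.5-fold (median 0.71, after removal 0.0045). The DNA-binding subunit gene *Lin54* had 92 and 330 counts and a log2 ratio of 2.09 (1.78 to 2.47), then 0.76. The histone-binding subunit gene *Rbbp4*, the most abundant of the list, had 6248 and 4307 counts and a log2 ratio of -0.26 (-0.32 to -0.20), then -1.13. *Lin9* was at 1.55 (1.06 to 2.18), then 0.52, *Lin52* at 0.71 (0.43 to 1.01), then 0.0045, and *Lin37* at -0.71 (-0.95 to -0.48), then -0.0030, so the subunits of the complex did not share a direction and those of *Lin52* and *Lin37* were lost on removal.

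Of 9 genes of the polycomb complex of E2F6, 4 were above 2-fold and 0 below 0.5-fold (median 0.41, then 0.03). With the trends removed 1 was above 2-fold and 0 below 0.5-fold. *Rnf2*, a ubiquitin ligase of histone H2A, had 113 and 472 counts and a log2 ratio of 2.32 (2.04 to 2.65), and 1.05 after removal. *Mga*, the scaffold gene, had 233 and 943 counts and 2.28 (2.09 to 2.51), then 0.33, and *Rybp* had 127 and 376 counts and 1.83 (1.55 to 2.15), then 0.77. Below equality as measured were *Max* at -0.43 (-0.58 to -0.29), then -0.34, *L3mbtl2* at -0.43 (-0.55 to -0.32), then -0.15, and *Ring1* at -0.65 (-0.82 to -0.48), then 0.03 (-0.14 to 0.20), so no direction can be given for *Ring1*.

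Among 10 corepressors that pocket proteins recruit, 6 were above 2-fold and 0 below 0.5-fold, with the second highest median of the lists (1.33, after removal 0.47). After removal 1 was above 2-fold and 0 below 0.5-fold. *Kdm5a*, a histone demethylase first found as an RB partner, had 202 and 945 counts and a log2 ratio of 2.49 (2.28 to 2.73), then 0.82. The RB-binding genes *Arid4b* (76 and 331 counts, 2.37, interval 2.04 to 2.78) and *Arid4a* (142 and 364 counts, 1.62, 1.35 to 1.93) were higher as well, and were at 0.78 and 0.53 after removal. *Smarca2*, the BRM remodeller, had 2347 and 4762 counts and 1.30 (1.23 to 1.37), and was still past 2-fold at 1.08 after removal. Its paralog *Smarca4* had 5044 and 3967 counts and -0.07 (-0.13 to -0.01), then 0.06 (0.0008 to 0.12), so no direction can be given for *Smarca4*. *Sin3b*, which acts with p130, had 2248 and 1301 counts and -0.51 (-0.61 to -0.41), then -0.06 (-0.16 to 0.04).

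The kinases that inactivate pocket proteins and their cyclins gave 2 of 8 genes above 2-fold and 0 below 0.5-fold (median -0.10, then -0.17). The most abundant of them were lower. *Ccnd1*, cyclin D1, had 4545 and 2220 counts and a log2 ratio of -0.76 (-0.83 to -0.68), which was -0.70 after removal, and *Cdk4* had 2684 and 1293 counts and -0.78 (-0.87 to -0.68), then -0.27. *Ccnd3* was at -0.57 (-0.67 to -0.48), then -0.06. *Cdk6* had 481 and 966 counts and 1.28 (1.12 to 1.44), but -0.16 after removal.

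Of 7 CDK inhibitors, 0 were above 2-fold and 2 below 0.5-fold (median -0.54, then -0.06). *Cdkn1a*, which encodes p21, had 2044 and 602 counts and a log2 ratio of -1.48 (-1.62 to -1.35), and -0.91 after removal. *Cdkn1c*, which encodes p57, had 140 and 49 counts and -1.21 (-1.74 to -0.76), then -0.40. *Cdkn1b*, which encodes p27, had 335 and 309 counts and 0.16 (-0.07 to 0.39), then -0.99, and *Cdkn2c* was at -0.54 (-0.84 to -0.26), then 0.17. Of the genes for E2F turnover, 1 of 3 was above 2-fold (median -0.19, then 0.09), *Skp2*, a ubiquitin ligase subunit that RB inhibits, with 27 and 87 counts and a log2 ratio of 1.88 (1.33 to 2.65), then 0.76. *Ccnf* at -0.19 (-0.33 to -0.06), then 0.09, and *Fzr1* at -0.71 (-0.87 to -0.55), then 0.01, turned from below to above equality on removal, when both intervals included it.

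Target genes of E2F for the G1/S transition did not share a direction. Of 22, 21 passed the count filter, 5 were above 2-fold and 1 below 0.5-fold (median 0.32, then 0.19). With the trends removed 1 was above 2-fold and 1 below 0.5-fold, and 14 were higher and 7 lower. *Chek1*, a checkpoint kinase gene, had 9 and 60 counts and a log2 ratio of 2.74 (1.99 to 4.21), then 1.45. *Pola1*, the catalytic subunit of the polymerase that starts DNA synthesis, had 48 and 157 counts and 1.94 (1.51 to 2.49), then 0.46. In contrast, *Cdc6*, which loads the replicative helicase, had 103 and 19 counts and -2.06 (-2.95 to -1.45), then -2.38. The most abundant targets were near equality, *Pcna* at 0.20 (0.09 to 0.31), *Tk1* at -0.12 (-0.29 to 0.04) and *Mcm7* at -0.08 (-0.21 to 0.05), and all of them turned on removal, to -0.34, 0.21 and 0.38.

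Of 14 genes for mitosis and cytokinesis, the step at which hepatocytes become polyploid, 3 were above 2-fold and 2 below 0.5-fold (median 0.02). With the trends removed 3 were higher and 11 lower, with 0 above 2-fold, 4 below 0.5-fold and a median of -0.56. *Aurkb*, the kinase of the chromosomal passenger complex, had 87 and 20 counts and a log2 ratio of -1.75 (-2.62 to -1.13), then -1.30. *Plk1*, a mitotic kinase gene, had 101 and 28 counts and -1.51 (-2.23 to -0.96), then -0.86, and *Cdk1* had 238 and 136 counts and -0.52 (-0.84 to -0.22), then -0.97. *Mki67*, the proliferation marker, had 67 and 135 counts and 1.26 (0.86 to 1.73), then 0.10. The passenger complex genes *Birc5* and *Cdca8* had 100 and 88 and 87 and 78 counts, with log2 ratios of 0.09 (-0.34 to 0.52), then -0.27, and 0.12 (-0.34 to 0.58), then -0.18. *Incenp*, of the same complex and named after its values were seen, had 139 and 119 counts and 0.05 (-0.31 to 0.42), then 0.51, so as measured *Aurkb* stood apart from the other genes of its complex.

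**Figure D5:**
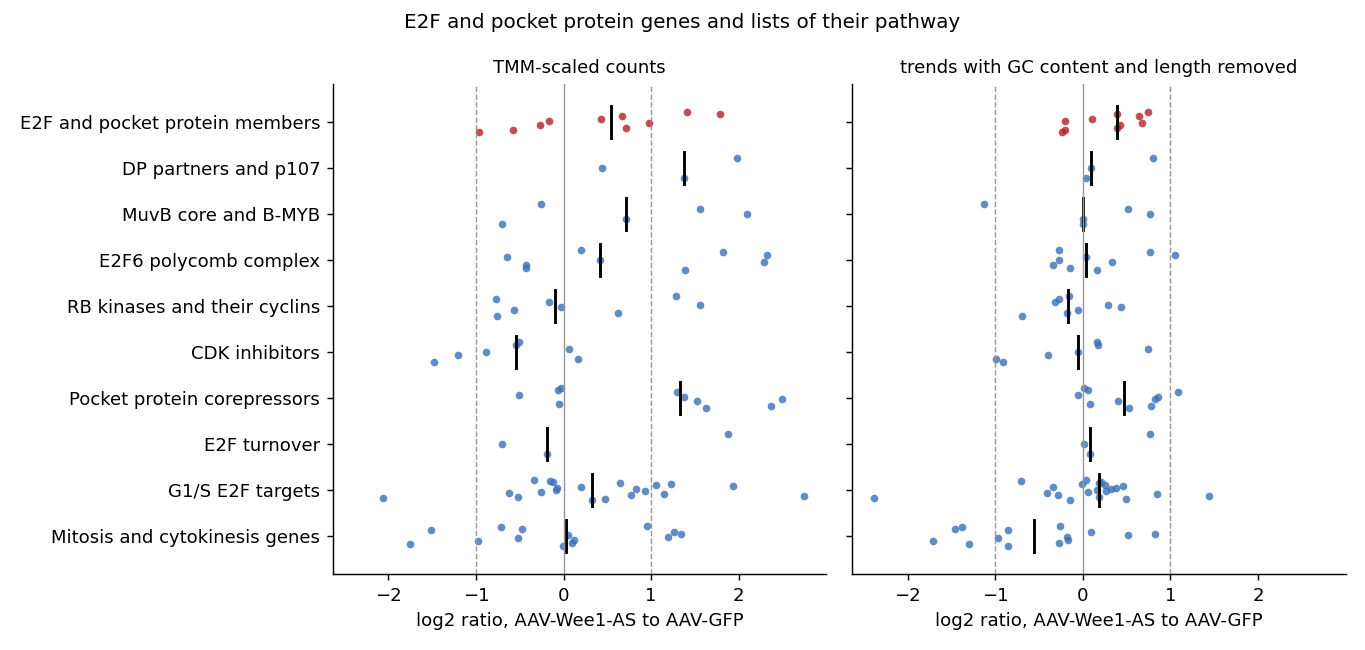
log2 ratio of each gene (points) and the median (bar) for the members and the 9 pathway lists, as measured and after removal of the trends with GC content and length. The partner genes and the corepressors have the highest medians as measured (1.37 and 1.33), and the mitosis and cytokinesis list has the lowest median after removal (-0.56).

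Markers of liver cell types were measured beside these genes. Over all genes, 22.5% were above 2-fold and 8.43% below 0.5-fold as measured. Hepatocyte markers summed to 76182 TPM in AAV-GFP and 85833 in AAV-*Wee1-AS*, with 1 of 5 genes above 2-fold and *Alb* at 37459 and 53289 TPM. Kupffer cell markers summed to 333 and 270 TPM (3 of 6 above 2-fold, 0 below 0.5-fold), endothelial markers to 126 and 104 TPM (0 of 5 past 2-fold), stellate cell markers to 169 and 152 TPM (1 of 5 above and 1 below) and cholangiocyte markers to 3.77 and 3.59 TPM (0 of 4). T and NK cell markers summed to 3.40 and 1.96 TPM (4 of 4 lower, 2 of them below 0.5-fold). The intervals of *Cd3e* (-0.0072, -0.73 to 0.70) and *Cd3d* (-0.41, -1.62 to 0.64) included equality. Neutrophil markers summed to 12.2 and 6.27 TPM (3 of 3 lower, 1 below 0.5-fold), and the interval of *S100a8* (-0.40, -1.11 to 0.24) included equality. B cell markers summed to 3.69 and 3.01 TPM (1 of 3 lower and 2 higher, among them *Ms4a1*, which was at 0 in AAV-GFP). Erythroid markers summed to 2037 and 1100.4 TPM (3 of 3 lower, with a median log2 ratio of -0.88 that was -0.07 with the trends removed). The summed markers of every listed cell type but hepatocytes were thus lower in AAV-*Wee1-AS* as measured. Single markers within a type did not all share the direction of the sum. Of the Kupffer cell markers 4 of 6 were higher (median log2 ratio 0.76), and of the stellate cell markers 3 of 5 (0.26). Higher were also 2 of 3 B cell markers (0.10), 2 of 5 endothelial markers (-0.08) and 2 of 4 cholangiocyte markers (-0.02). Of the hepatocyte markers 3 of 5 were higher (0.23) and 2 lower. With the trends removed the median was -0.59 for T and NK cell markers and -0.94 for neutrophil markers. The part of the cell types in the results was not tested.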

How the data were processed

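RNA of mouse liver was sequenced from poly-A libraries of a stranded kit, with 1 library analysed per group. The authors deposited a table of 129299 RefSeq transcripts (build mm10) with, per library, an estimated count, a value in FPKM and a value in TPM. Estimated counts are whole numbers shared out between overlapping transcripts and are not normalized, and the deposited FPKM and TPM values are scaled per length and library. The submitters' processing notes name Trimmomatic 0.38, HISAT2 2.1.0, SAMtools 1.9 and StringTie 2.1.3b, and no reads were processed again.

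Estimated counts were summed per gene symbol. Libraries were scaled with TMM factors of edgeR 4.0.16 in R 4.3.3 (AAV-GFP 1.03, AAV-*Wee1-AS* 0.975), and the prior count of log2 ratios was 2. A gene was kept where either library had 10 counts or more. Exact (Clopper-Pearson) 95% intervals of the ratio and Poisson intervals of TPM cover counting error only, and a library at 0 counts was set to a floor of 3 counts for lower bounds. GC content came from the longest GENCODE transcript of a gene (94.56% of kept genes), and trends with GC content and length were removed by lowess fits (span 0.3, 5 cycles) in Python 3.11.15 with statsmodels 0.14.6. Promoter sequences came from RefSeq (GRCm38.p6). The scripts were tested on simulated data.

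The members, the pathway lists and the marker lists were chosen with earlier results of these data known. The genes named are all members, overlapping genes, and from each list at most the 3 with the highest mean TPM and the 3 with the largest log2 ratio in either direction among those with at least 50 counts in a library, and *Incenp*, which was added after its values were seen. Other settings tried were size factors of DESeq2 1.42.0, upper-quartile scaling, scaling by totals, other count filters, a prior count of 0.5, FPKM and TPM with a pseudocount of 1, removal of the trends, and the most counted transcript of each gene.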

Additional observations from a re-analysis of the deposited data

How the results depend on the processing

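Past 2-fold were 4909 genes (31.0%) and 2 members as reported. With FPKM and a pseudocount of 1 these were 1336 genes and 1 member, with TPM and a pseudocount of 1 they were 2046 genes and 1 member, and with the trends with GC content and length removed 2386 genes and 0 members. With only the most counted transcript of each gene, 5787 of 15782 genes and 5 members were past 2-fold. With library totals and with upper-quartile scaling 3 members were, *E2f1* being added at -1.03 and -1.09, and with the length trend alone removed 3 were, *E2f2* at -1.02, *E2f5* at 1.08 and *Rb1* at 1.36, while *Rbl2* was at 0.96. The median of the members, 0.55 as reported, was 0.42 with upper-quartile scaling, 0.67 with a minimum of 50 counts in either library (which drops *E2f7*), 0.13 with FPKM, 0.19 with TPM, 0.39 with both trends removed and 0.061 with the length trend alone removed. *E2f4* turned to 0.42 with both trends removed. The split of 3572 genes above and 1337 below became 1107 and 1279 with both trends removed and 2696 and 1850 with the length trend alone removed. Upper-quartile scaling set the median of all genes to -0.13. Of 12 alternatives, all gave the reported sign for each member except 1 for *E2f4* and 1 of 11 for *E2f7*. The other count filters leave the ratio of a kept member unchanged by construction, so they could not change a sign. Size factors of DESeq2 and the prior count of 0.5 gave nearly the reported values. The tally is therefore no measure of how firm the signs are. The causes were not tested beyond the construction of each alternative. Low pseudocounted values of FPKM and TPM understate ratios of low genes. No paired analysis was possible because each group had 1 library, and no replicate could be left out. Depth limits *E2f7*, with 13 and 15 counts.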
